A study of Homo sapiens with 9 samples.

Results

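The expression array used for RKO cells carried 11836 probes for long intergenic noncoding RNAs (lincRNAs), 23.4% of its 50599 non-control probes. They were chosen by name alone, as every non-control probe whose gene name begins with XLOC_, the form in which the array design lists loci assembled from RNA sequencing reads. No probe had a name beginning with lincRNA:, the other form searched for. The probes covered 8404 named loci, of which 6417 had 1 probe and 1987 had more, up to 13. Loci of the plain XLOC_ form numbered 6932, with 9202 probes, and those of the XLOC_l2_ form 1472, with 2634 probes. Each probe was 60 bases long, 11752 had a chromosome position in the design (build hg19), and only 90 could be matched to a RefSeq gene. The remaining 38763 non-control probes served for comparison.

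LincRNAs are transcripts without a recognised coding sequence that arise between protein-coding genes. All XLOC_ probes, those of the XLOC_l2_ form included, are called lincRNA probes here by name. Whether the transcript of each lacks a coding sequence was not tested. LincRNAs are usually spliced and capped like messenger RNAs, tend to be less abundant and more restricted to particular tissues than these, and most have no known function. UHRF1 binds hemimethylated DNA after replication and brings the maintenance DNA methyltransferase DNMT1 to it. Trichostatin A (TSA) inhibits histone deacetylases, and 5-aza-2'-deoxycytidine (5-aza-dC) traps DNA methyltransferases, so that methylation is lost as cells divide.

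RKO is a human colorectal cancer cell line. Cells received a control siRNA (siCONT) or an siRNA to UHRF1 (siUHRF1) for 72 h and then ethanol as mock treatment or 300 nM TSA for 24 h. This gave 4 groups of 2 arrays each, called siCONT and siUHRF1 after mock treatment, and siCONT + TSA and siUHRF1 + TSA after TSA. The siUHRF1 arrays of both settings were made with different siRNAs, siUHRF1-1 for replicate 1 and siUHRF1-2 for replicate 2. A single array came from cells given 1 µM 5-aza-dC for 72 h with no siRNA. The comparisons ask how far loss of UHRF1, histone deacetylase inhibition and both together change RNA levels, with 5-aza-dC as the reference for pharmacological demethylation.

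The 8 siRNA arrays shared 1 slide and 1 scan, with mock arrays in one row of the slide and TSA arrays in the other, and siCONT and siUHRF1 arrays in separate columns, so that position and treatment cannot be told apart. The 5-aza-dC array came from a separate slide and scan, and its 75th percentile of signal was 822 against 245 to 338 on the siRNA arrays, so that batch and treatment cannot be told apart for it. The brighter UHRF1 probe read 1820 and 1840 in siCONT, 433 and 292 in siUHRF1, 1790 and 1860 in siCONT + TSA, and 223 and 178 in siUHRF1 + TSA. It was lower by siRNA in mock-treated cells (log2 fold change -2.47, limma adjusted p = 0.00238) and in TSA-treated cells (-3.35, adjusted p = 0.000132). The epithelial keratins KRT8 and KRT18 were above background on all 9 arrays, whereas CDH1 was above background on none and EPCAM only on siCONT replicate 1 and the 5-aza-dC array. Of the 3 epithelial markers tested, KRT18 and KRT19 were called higher in siUHRF1 + TSA against siCONT (adjusted p = 0.00869 and 0.0014). The summed signal of all 5 epithelial markers was 13314 to 13597 in siCONT, 16504 to 17547 in siUHRF1, 13057 to 13219 in siCONT + TSA, 20234 to 25538 in siUHRF1 + TSA and 36763 on the 5-aza-dC array. Of genes that mark other cells, all 3 fibroblast markers and 1 of 3 endothelial markers were called higher in siUHRF1 + TSA against siCONT. The summed signal of the fibroblast markers was 45.2 to 58.7 in siCONT, 66.0 to 104 in siUHRF1, 106.7 to 108.3 in siCONT + TSA, 174 to 257 in siUHRF1 + TSA and 446 on the 5-aza-dC array. That of the endothelial markers was 44.9 to 45.8, 53.4 to 53.6, 55.4 to 60.1, 150.2 to 192 and 139, in the same order. That of the 4 blood markers was 24.7 to 41.3 in siCONT, 23.8 to 34.0 in siUHRF1, 26.1 to 37.0 in siCONT + TSA, 29.9 to 38.4 in siUHRF1 + TSA and 538 on the 5-aza-dC array. Above background on no array were HBB and PECAM1, 1 of the 4 blood and 1 of the 3 endothelial markers. An endothelial marker was also called higher in siUHRF1 and in siCONT + TSA, each against siCONT. With 5-aza-dC, 1 of 3 blood, 1 of 3 fibroblast and 1 of 2 endothelial markers tested were called higher. The part of these markers in the results on lincRNAs was not tested.

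The probe sequences below, from the array design, are those on which the results turn. The first 5 belong to the loci with the largest or most distinctive responses, and are shown so that the transcript measured can be traced: XLOC_l2_015849 at chrX:152661129-152661188 on the minus strand, XLOC_l2_010338 at chr3:127002627-127002686 on the minus strand, XLOC_013985 at chr21:47016848-47016907 on the plus strand, XLOC_l2_009442 at chr22:16199682-16199741 on the minus strand and XLOC_001748 at chr2:171634855-171634914 on the plus strand, all in hg19.
XLOC_l2_015849: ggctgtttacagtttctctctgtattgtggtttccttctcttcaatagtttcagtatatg
XLOC_l2_010338: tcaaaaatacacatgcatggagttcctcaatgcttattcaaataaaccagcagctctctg
XLOC_013985: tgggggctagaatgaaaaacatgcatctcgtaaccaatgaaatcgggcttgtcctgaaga
XLOC_l2_009442: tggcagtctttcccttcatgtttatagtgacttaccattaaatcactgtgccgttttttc
XLOC_001748: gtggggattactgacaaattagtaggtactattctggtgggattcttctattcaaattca

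A pair of loci on chromosome X, XLOC_l2_015752 at chrX:70882845-70882904 (minus strand) and XLOC_008183 at chrX:70940588-70940647 (plus strand), is shown because the probes share 42 of 46 overlapping bases, in capitals, and moved together.
XLOC_l2_015752: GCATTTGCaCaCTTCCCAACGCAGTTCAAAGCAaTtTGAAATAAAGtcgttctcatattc
XLOC_008183: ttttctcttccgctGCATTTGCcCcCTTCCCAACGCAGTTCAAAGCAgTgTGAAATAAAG

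The brightest lincRNA probe, that of XLOC_l2_004940 at chr15:53229133-53229192 (minus strand), is shown because it resembles a probe for the messenger RNA of EEF1A1, an abundant translation elongation factor. Capitals mark the bases equal to those of the EEF1A1 probe when the probes are laid side by side without gaps, 43 of 54.
XLOC_l2_004940: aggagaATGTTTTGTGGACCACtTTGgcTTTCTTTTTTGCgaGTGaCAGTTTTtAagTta

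Few lincRNA probes gave a signal. Between 12.5% and 14.9% were well above background on each siRNA array, 1479 to 1767 probes, against 53.1% to 56.2% of all other probes. The shares were 14.2% and 13.4% in siCONT, 13.7% and 14.9% in siUHRF1, 13.8% and 12.5% in siCONT + TSA, and 14.3% and 14.5% in siUHRF1 + TSA, so that arrays of different groups overlapped. On the 5-aza-dC array 18.3% of lincRNA probes, 2169, and 61.8% of the others were above background. The lincRNA probes that did pass were also dimmer, with a median processed signal (arbitrary units, background subtracted, not scaled between arrays) of 46.3 to 53.7 on the siRNA arrays, against 259.6 to 329.5 for the other probes. A total of 8822 lincRNA probes (74.5%) were above background on no array, against 33.2% of the other probes, and 1142 (9.65%) were above background on all 9, against 49.9%. The flag depends on the background rule. With the less strict flag of the software, 36.0% to 43.2% of lincRNA probes passed on the siRNA arrays.

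**Figure D1:**
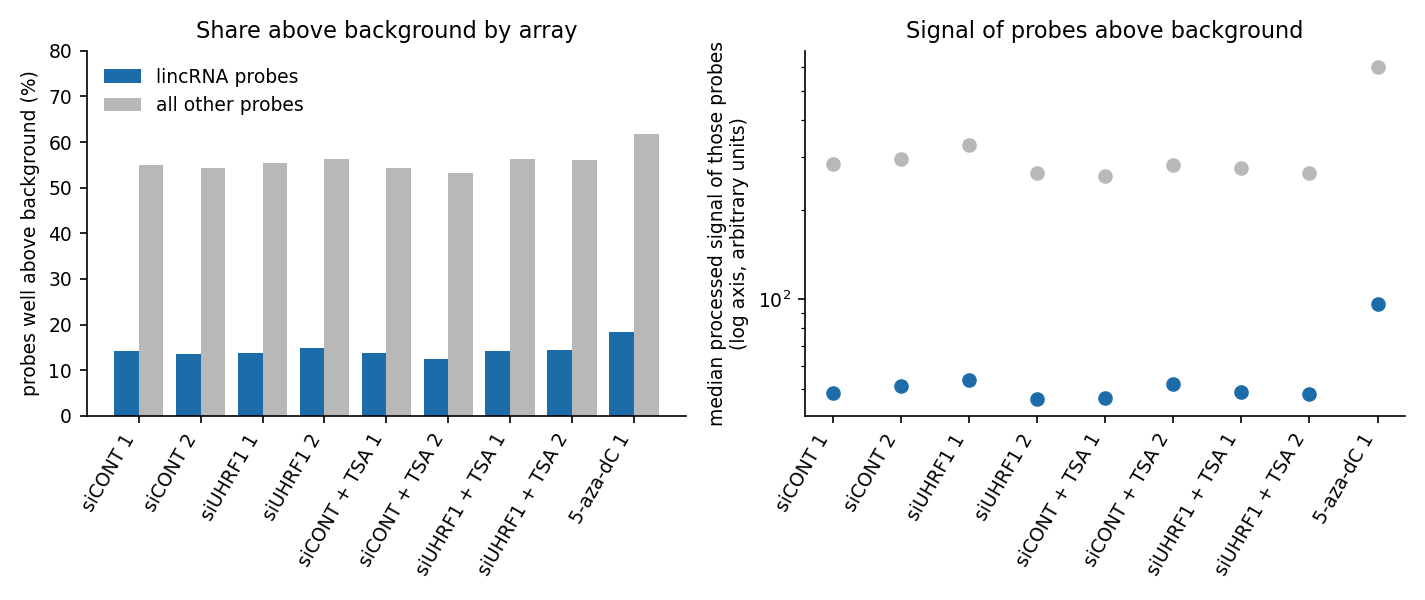
Left, the share of lincRNA probes (blue) and of all other probes (grey) well above background on each of the 9 arrays, in percent. Right, the median processed signal of the probes above background on each array, on a log axis; lincRNA probes sit at 12.5% to 18.3% and below the other probes in signal on every array.

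Counted by group, 1433 lincRNA probes (12.1%) were above background on both siCONT arrays, 1495 (12.6%) on both siUHRF1 arrays, 1369 (11.6%) on both siCONT + TSA arrays and 1481 (12.5%) on both siUHRF1 + TSA arrays. Of the 10002 lincRNA probes below background on both siCONT arrays, 64 (0.640%) came above it on both siUHRF1 arrays, 38 (0.380%) on both siCONT + TSA arrays, 115 (1.15%) on both siUHRF1 + TSA arrays and 709 (7.09%) on the single 5-aza-dC array. Among the other probes below background in siCONT the shares were 1.84%, 1.13%, 4.26% and 18.8%. In the opposite direction, 15 (1.05%), 60 (4.19%), 53 (3.70%) and 134 (9.35%) of the 1433 lincRNA probes detected in siCONT were below background on every array of these groups, against 0.253%, 1.40%, 1.03% and 2.42% of the other probes. Detected lincRNA probes were dimmer than the other detected probes, and these shares were not matched for signal. Among the siRNA arrays, the siUHRF1 + TSA pair alone was above background for 47 lincRNA probes, and 34 of these (72.3%) were also above it on the 5-aza-dC array. Another 9 were above background on all 4 arrays with UHRF1 siRNA and no other siRNA array, 8 of them also on the 5-aza-dC array. The first pattern held for 0.397% of the lincRNA probes and 0.676% of the others (262), and the second for 0.0760% and 0.325% (126). These patterns are counts of flags and were given no test.

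A lincRNA probe entered the tests when it was above background on every array of at least 1 group. This left 1728 of 11836 (14.6%) from 1403 loci for the siRNA comparisons and 2396 (20.2%) from 1946 loci for 5-aza-dC, against 56.7% and 63.9% of the other probes. limma was fitted to all 23726 probes that passed, or 27171 with 5-aza-dC, and probes were called at an adjusted p below 0.05. With 2 arrays a group, and no label that says whether they came from separate cultures, the p-values measure only the spread between these arrays. That spread was wider for lincRNA probes. Arrays of the same group differed, at the median over lincRNA probes and on the log2 scale, by 0.116 in siCONT, 0.334 in siUHRF1, 0.131 in siCONT + TSA and 0.226 in siUHRF1 + TSA, against 0.061, 0.247, 0.065 and 0.179 for the other probes. Fewer cells with a transcript and less of it per cell cannot be told apart in such samples.

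**Figure D2:**
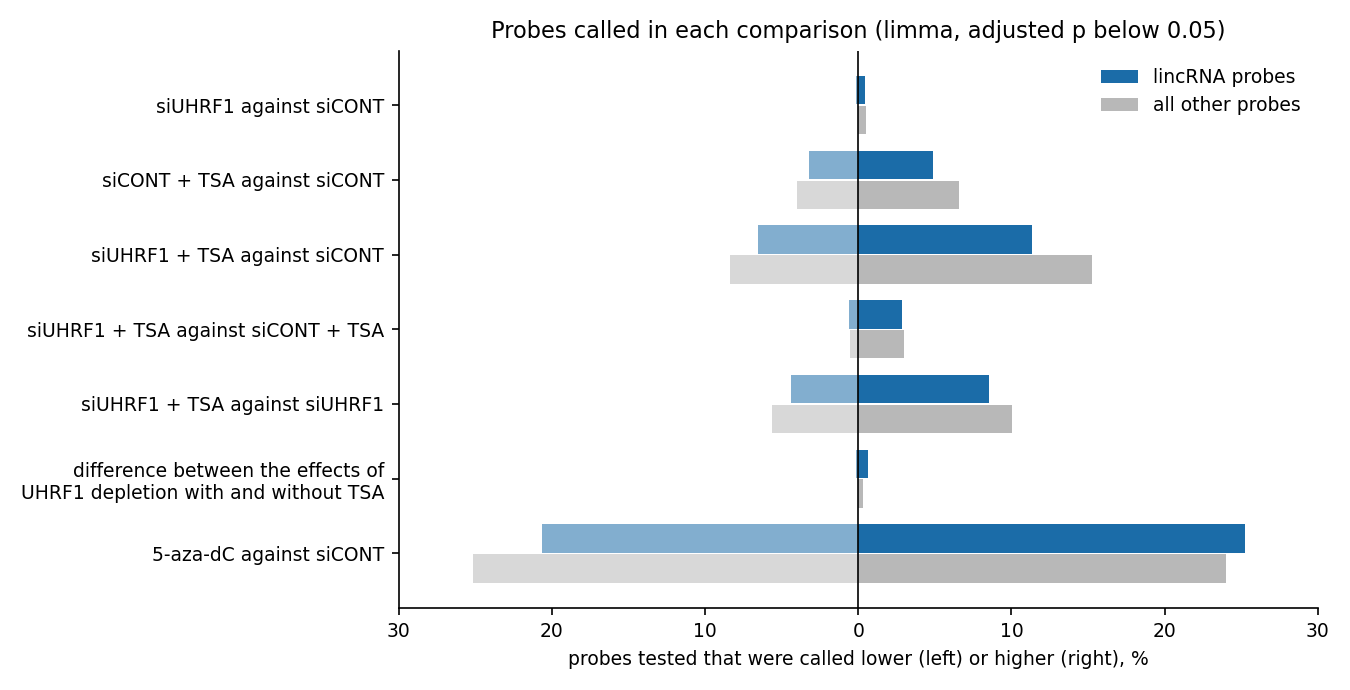
Share of the tested probes called higher (right of 0) and lower (left of 0) in each of the 7 comparisons, in percent, for lincRNA probes (blue) and all other probes (grey). In siUHRF1 + TSA against siCONT 17.9% of lincRNA probes and 23.7% of the others were called. In 5-aza-dC against siCONT 45.9% and 49.2% were, where the balance of higher and lower depended on the scaling and the probe filter. Of the lincRNA calls there 55% were higher, 10.6% after spike-in scaling and 17.5% with no filter on dim probes.

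UHRF1 siRNA alone gave few calls among the lincRNA probes tested. Of 1728 probes, 10 (0.579%) were called in siUHRF1 against siCONT, 8 higher and 2 lower, where 0.556% of all probes tested were called (0.518% higher and 0.0379% lower). At an unadjusted limma p below 0.05 there were 193, against 1920 of the 21998 other probes. The count fell to 5 without siCONT replicate 1, to 5 without siCONT replicate 2 and to 6 without siUHRF1 replicate 1. All 10 lay in the dimmest of 4 equal bins into which the tested probes were divided by mean signal. In that bin 1.02% of lincRNA probes and 1.78% of the other probes were called.

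XLOC_l2_015849 changed most. Its signal was 3.66 and 3.93 in siCONT, 156 and 222 in siUHRF1, 3.63 and 4.04 in siCONT + TSA, 794 and 929 in siUHRF1 + TSA, and 64300 on the 5-aza-dC array. It was above background only where UHRF1 siRNA or 5-aza-dC was given, and the groups did not overlap. A group below background gives only a bound, so its folds are stated as at least the ratio to the dimmest signal that the array could place above background, each relative to the array's 75th percentile. The rise was at least 12.1-fold in siUHRF1 against siCONT (fitted log2 difference 5.50, SE 0.25, limma adjusted p = 0.00132), at least 61.8-fold in siUHRF1 + TSA against siCONT (7.85, adjusted p = 4.5e-05) and at least 1564-fold in 5-aza-dC against siCONT (12.51, adjusted p = 5.07e-06). TSA added to UHRF1 siRNA raised it by 2.35 on the log2 scale (adjusted p = 0.00492). The calls against siCONT remained when each of the 8 siRNA arrays was left out in turn.

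XLOC_013985 and XLOC_l2_011908 had a similar course. XLOC_013985 read 3.63 and 3.92 in siCONT, 44.7 and 25 in siUHRF1, 5.12 and 3.95 in siCONT + TSA, 221 and 142 in siUHRF1 + TSA, and 1690 on the 5-aza-dC array. Its rise was at least 2.18-fold with UHRF1 siRNA alone (adjusted p = 0.00991) and at least 12.8-fold in siUHRF1 + TSA against siCONT (adjusted p = 0.00017); the call for UHRF1 siRNA alone was lost without siCONT replicate 1, without siCONT replicate 2 or without siUHRF1 replicate 1 (highest adjusted p = 0.0726). XLOC_l2_011908, at chr5:1171450-1171509, read 3.26 and 3.52 in siCONT, 27.3 and 28.8 in siUHRF1, 9.37 and 10.2 in siCONT + TSA, 142 and 168 in siUHRF1 + TSA, and 1860 on the 5-aza-dC array. Both loci were above background on each array with UHRF1 siRNA and on the 5-aza-dC array, and on none of the siCONT or siCONT + TSA arrays. XLOC_l2_011908 was at least 1.83-fold higher in siUHRF1 (adjusted p = 0.00202) and at least 11.1-fold higher in siUHRF1 + TSA (adjusted p = 2.83e-05) than in siCONT. The siUHRF1 calls of XLOC_013985 and XLOC_l2_011908 were lost with normexp background correction.

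XLOC_001406, at chr2:27980408-27980467, differed from these. It read 12.7 and 9.68 in siCONT, 70.4 and 77.5 in siUHRF1, 6.69 and 3.84 in siCONT + TSA, 14.5 and 12.7 in siUHRF1 + TSA, and 6.82 on the 5-aza-dC array. It was above background on the siUHRF1 arrays only, at least 4.82-fold higher than siCONT (adjusted p = 0.0285) and at least 4.66-fold higher than siUHRF1 + TSA (adjusted p = 0.00863). The call against siCONT was lost in 6 of the 8 fits with an array left out (highest adjusted p = 0.158), and with normexp. XLOC_005442 read 15.3 and 9.76 in siCONT, both below background, and 56.2 and 49.3 in siUHRF1, at least 3.25-fold higher (adjusted p = 0.0379). XLOC_013643 read 21.4 and 39.2 in siCONT and 3.97 and 3.02 in siUHRF1, the latter below background, at least 2.27-fold lower (adjusted p = 0.00783). These made up the other calls with a group above background, and both loci were picked out after their values were seen. The remaining 4 calls, of XLOC_l2_009442, XLOC_003832, XLOC_014103 and XLOC_001856, were between groups that were both below background.

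TSA alone gave more calls among lincRNA probes, in both directions. In siCONT + TSA against siCONT, 140 of 1728 probes (8.10%) from 128 loci were called, 84 higher and 56 lower, where 10.4% of all probes tested were called (6.46% higher and 3.95% lower). The median log2 fold change was 0.09 for lincRNA probes (-0.01 with spike-in scaling) and 0.07 for all probes. The share of calls that were higher, 60%, became 45.8% after scaling on the spike-in probes. The count was sensitive to single arrays: it was 4 without siCONT replicate 1, 5 without siCONT replicate 2, 10 without either siCONT + TSA array, and 240 without either siUHRF1 array.

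XLOC_001904, at chr2:236087349-236087408, rose with TSA in siCONT cells and stayed below background in siUHRF1 cells given TSA. Its signal was 3.18 and 3.49 in siCONT, 3.44 and 3.01 in siUHRF1, 28.8 and 24.7 in siCONT + TSA, 3.25 and 3.21 in siUHRF1 + TSA, and 7.03 on the 5-aza-dC array. Only the siCONT + TSA arrays were above background. It was at least 2.13-fold higher with TSA than without in siCONT cells (fitted log2 difference 3.18, SE 0.12, adjusted p = 0.000931) and at least 2.06-fold lower in siUHRF1 + TSA than in siCONT + TSA (adjusted p = 0.00011), and both calls remained with each siRNA array left out. XLOC_011135, at chr14:101872355-101872414, read 3.11 and 3.36 in siCONT, 5.22 and 3.62 in siUHRF1, 29.4 and 30.3 in siCONT + TSA, 170 and 37.9 in siUHRF1 + TSA, and 17.1 on the 5-aza-dC array. All 4 TSA arrays were above background and no other array was. Its rise was at least 2.39-fold with TSA alone (adjusted p = 0.0251, lost without any single siCONT or siCONT + TSA array, up to 0.143) and at least 5.77-fold in siUHRF1 + TSA (adjusted p = 0.00475). XLOC_l2_013530 was above background on 1 of the 2 siCONT + TSA arrays and rose at least 1.78-fold (adjusted p = 0.0319, lost in 4 of the 8 fits). With normexp the calls of XLOC_011135 and XLOC_l2_013530 for TSA alone were lost.

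The 4 named lincRNAs that fell with TSA alone were also called lower with TSA in siUHRF1 cells. XLOC_001748 read 289 and 248 in siCONT, 325 and 250 in siUHRF1, 55.2 and 39.7 in siCONT + TSA, 49.3 and 46.5 in siUHRF1 + TSA, and 71.6 on the 5-aza-dC array. It was above background on all 9 arrays, and every TSA array lay below every mock array. The fall was 2.34 on the log2 scale with TSA in siCONT cells (log2 fold change -2.34, SE 0.19, adjusted p = 0.00581, or 0.0553 without siCONT replicate 1), and the log2 fold change was -2.43 with TSA in siUHRF1 cells (adjusted p = 0.00182). XLOC_013370, at chr19:47742558-47742617, read 60.4 and 60.9 in siCONT, 62.1 and 62.8 in siUHRF1, 14.1 and 13.1 in siCONT + TSA, 18.8 and 15.3 in siUHRF1 + TSA, and 7.45 on the 5-aza-dC array. It was at least 3.67-fold lower with TSA in siCONT cells (adjusted p = 0.00486, or 0.0511 without siCONT replicate 1) and changed by -1.74 on the log2 scale with TSA in siUHRF1 cells (adjusted p = 0.0023), where 1 of the 2 siUHRF1 + TSA arrays was above background. XLOC_l2_002433 (62.0 and 63.3 in siCONT, 2.96 and 5.72 in siCONT + TSA) and XLOC_004679 (53.5 and 40.4 in siCONT, 13.3 and 3.67 in siCONT + TSA) were at least 3.90-fold and 2.89-fold lower, with adjusted p of 0.035 and 0.0482, and these calls were lost in 4 and 7 of the 8 fits with an array left out. In siUHRF1 cells their calls with TSA (adjusted p = 0.0495 and 0.0352) were lost in 7 and 6 of the 8 fits. With normexp the calls of XLOC_013370, XLOC_l2_002433 and XLOC_004679 for TSA alone were lost, and so was that of XLOC_l2_002433 in siUHRF1 cells.

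By limma, UHRF1 siRNA and TSA together gave the most calls of the siRNA comparisons. Of 1728 probes, 309 (17.9%) from 265 loci were called in siUHRF1 + TSA against siCONT, where 23.2% of all probes tested were called and 23.7% of those outside the lincRNAs. There were 196 higher (11.3% of the lincRNA probes tested, where 15% of all probes tested were called higher) and 113 lower (6.54%, against 8.24%). More than 2-fold rises numbered 122 of the 196, against 1185 of the 3361 other probes called higher. In 80 of the 196 the siCONT arrays were below background, against 584 of the 3361. For such probes the size of the rise rests on values below background, and they passed the filter only through treated groups. The counts of 2-fold rises are therefore not like for like. The median log2 fold change was 0.06 for lincRNA probes (-0.05 with quantile normalization and -0.09 with spike-in scaling) and 0.05 for all probes. Of the calls 63.4% were higher, which became 47.0% after quantile normalization and 52.3% after scaling on the spike-in probes. With only probes above background on every array it was 54.6%. The count fell to 123 without siCONT replicate 1 and to 118 without siCONT replicate 2. The methods' t-test after Benjamini-Hochberg adjustment called 9 probes here and 134 with TSA alone, and before it 365 and 405.

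After XLOC_l2_015849, the largest fitted rise of the named loci was that of XLOC_l2_010338. It read 3.38 and 3.70 in siCONT, 12.7 and 15.9 in siUHRF1, 12.6 and 19.2 in siCONT + TSA, 587 and 436 in siUHRF1 + TSA, and 8290 on the 5-aza-dC array. Among siRNA arrays it was above background on both siUHRF1 + TSA arrays and on siCONT + TSA replicate 2. The rise was at least 36.4-fold in siUHRF1 + TSA against siCONT (fitted log2 difference 7.19, SE 0.27, adjusted p = 6.83e-05) and 4.87 on the log2 scale against siCONT + TSA (adjusted p = 0.000405), of which 1 of 2 arrays was above background. It was also called with TSA alone, at least 1.24-fold higher (adjusted p = 0.0112), a call lost without any single siCONT or siCONT + TSA array and with normexp.

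The chromosome X pair printed above followed one course. XLOC_l2_015752 read 7.85 and 8.88 in siCONT, 24.5 and 40.1 in siUHRF1, 38.6 and 22.8 in siCONT + TSA, 234 and 185 in siUHRF1 + TSA, and 8980 on the 5-aza-dC array. XLOC_008183, above background on all 9 arrays, read 88.7 and 85.2 in siCONT, 147 and 182 in siUHRF1, 144 and 136 in siCONT + TSA, 549 and 465 in siUHRF1 + TSA, and 16710 on the 5-aza-dC array. The rise in siUHRF1 + TSA against siCONT was at least 15-fold for the first (adjusted p = 0.0011) and 2.57 on the log2 scale for the second (SE 0.20, adjusted p = 0.000881). With 42 of 46 bases in common, signal from one transcript on the probe of the other cannot be told apart from separate changes.

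XLOC_l2_009442, with 3 probes at chr22:16199682-16199911, was above background on both siUHRF1 + TSA arrays and the 5-aza-dC array only, with all 3 probes. The probes at chr22:16199682-16199741 and chr22:16199702-16199761 overlap in position and sequence. The remaining probe aligned over 40 bases at 92.5% identity to that of XLOC_l2_003602 on chromosome 13. The XLOC_l2_003602 probe was above background on the 5-aza-dC array only (fitted log2 difference 2.22 against siCONT). The probe printed above read 3.52 and 3.78 in siCONT, 13.4 and 9.71 in siUHRF1, 3.37 and 3.79 in siCONT + TSA, 80.7 and 92.2 in siUHRF1 + TSA, and 511 on the 5-aza-dC array. The fitted log2 differences of the 3 probes in siUHRF1 + TSA against siCONT were 4.59, 4.83 and 3.29, with bounds of at least 6.20-fold, 6.01-fold and 3.04-fold and adjusted p of 2.64e-05, 5.86e-05 and 0.000384. XLOC_005935 rose as well (at least 5.72-fold, adjusted p = 0.0152), but its siUHRF1 + TSA arrays read 204 and 30.9, and the call was lost without siCONT replicate 1 or without siCONT replicate 2 (up to 0.0807).

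Among the falls in siUHRF1 + TSA, XLOC_001748, measured above background on all arrays, had a log2 fold change of -2.46 (SE 0.19, adjusted p = 0.000805) and XLOC_013370 one of -1.81 (adjusted p = 0.000985), with 1 of the 2 siUHRF1 + TSA arrays above background. XLOC_001537, at chr2:75159799-75159858, read 46.2 and 40.6 in siCONT, 24.5 and 32.1 in siUHRF1, 16.7 and 15.8 in siCONT + TSA, and 13.8 and 9.20 in siUHRF1 + TSA, at least 2.96-fold lower than siCONT (adjusted p = 0.00567). The other named falls were at least 4.35-fold for XLOC_005495 (siCONT signals 101 and 40.1), 4.28-fold for XLOC_l2_002433, 3.18-fold for XLOC_004679, 2.52-fold for XLOC_l2_005553 and 1.19-fold for XLOC_013711, with adjusted p of 0.0278, 0.0307, 0.044, 0.00476 and 0.0139. Of these 5, only the call of XLOC_l2_005553 remained with each siRNA array left out. With normexp it was lost too, as were those of XLOC_001537, XLOC_013370, XLOC_004679 and XLOC_013711.

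**Figure D3:**
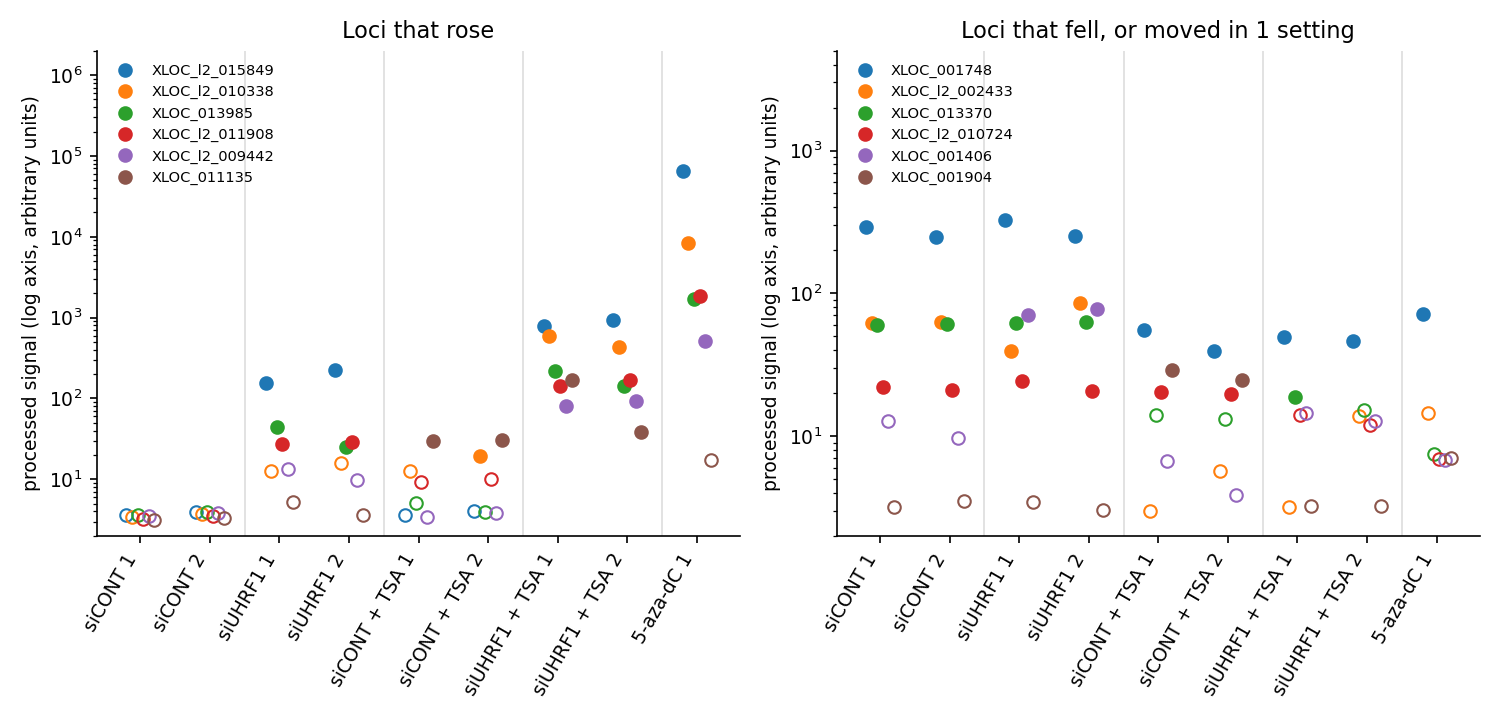
Processed signal (log axis, arbitrary units) of 6 loci that rose (left) and 6 that fell or moved in 1 setting (right) on each of the 9 arrays; filled points were well above background and open points were not. XLOC_l2_015849 runs from 3.66 in siCONT to 929 in siUHRF1 + TSA and 64300 on the 5-aza-dC array, and XLOC_001748 from 248 or more on the mock arrays to 55.2 or less on the TSA arrays.

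Within TSA-treated cells, few lincRNA probes were called with UHRF1 siRNA, most of them higher. In siUHRF1 + TSA against siCONT + TSA 60 of 1728 probes (3.47%) were called, 49 higher and 11 lower, where 3.54% of all probes tested were called (2.96% higher and 0.573% lower). The share of calls that were higher was 81.7%, 67.1% after quantile normalization and 58.3% with normexp background correction. With only probes above background on every array 10 were called, 60% of them higher. The median log2 fold change was -0.03 for lincRNA probes and -0.01 for all probes. The count fell to 35 without siCONT + TSA replicate 1. In 38 of the 49 the siCONT + TSA arrays were below background, against 327 of the 654 other probes called higher. Of the 49, 42 (85.7%) were also called higher in 5-aza-dC against siCONT, and 1 was called lower. These 42 were 6.94% of the 605 called higher there. That comparison sets other arrays against each other, but its spread was estimated from all 9 arrays, those with TSA included. Of all lincRNA probes tested, 25.3% were called higher there, and of those in the dimmest bin 36.5%. A probe below background in siCONT had little room to be called lower, and the overlap was given no test. The overlap depended on the scaling of the 5-aza-dC array: in a check added after the data were seen, 24 of the 49 were higher and 5 lower on that array with normexp, 41 and 2 with quantile normalization, 42 and 1 with a shift by the median, and 27 and 11 with spike-in scaling, where 6.47%, 23%, 27.5% and 8.22% of all lincRNA probes tested were higher. The rises named were those of XLOC_l2_015849 (at least 54.6-fold, adjusted p = 6.98e-05), XLOC_013985 (at least 11.3-fold, adjusted p = 0.000379), XLOC_l2_010338 and XLOC_l2_009442 (at least 5.48-fold for the probe printed, adjusted p = 3.84e-05).

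The falls in that comparison were smaller. XLOC_009363, at chr11:3875548-3875607, read 18.5 and 20.1 in siCONT, 20.5 and 17.5 in siUHRF1, 31.1 and 28.1 in siCONT + TSA, and 11 and 9.98 in siUHRF1 + TSA. It was at least 2.29-fold lower in siUHRF1 + TSA than in siCONT + TSA (adjusted p = 0.000866). XLOC_010856 was at least 2.98-fold lower (adjusted p = 0.0425, lost in 7 of 8 fits with an array left out) and XLOC_l2_010724 at least 1.55-fold lower (adjusted p = 0.0149, lost in 3). The calls of XLOC_009363, XLOC_l2_010724 and XLOC_l2_009442 in that comparison were lost with normexp.

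TSA in UHRF1-depleted cells gave 223 calls among 1728 lincRNA probes (12.9%), 147 higher and 76 lower, where 15.5% of all probes tested were called (9.96% higher and 5.52% lower). The share higher was 65.9%, 48.8% after quantile normalization and 52.0% after scaling on the spike-in probes. The count ranged from 113 without siUHRF1 + TSA replicate 1 to 388 without siUHRF1 replicate 2. It was 124 without either siCONT array, 139 without either siCONT + TSA array, 136 without siUHRF1 replicate 1 and 147 without siUHRF1 + TSA replicate 2. The largest named rises were those of XLOC_l2_010338 (at least 36.5-fold, adjusted p = 0.000387), XLOC_011135 (at least 6.43-fold, adjusted p = 0.00989) and XLOC_000027 (at least 5.24-fold, adjusted p = 0.000974). XLOC_000027, at chr1:2734262-2734321, read 56.3 and 76.1 in siUHRF1 + TSA and 281 on the 5-aza-dC array, and 3.18 to 4.83 on the 6 other arrays, all below background.

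The effect of UHRF1 siRNA differed between TSA-treated and mock-treated cells for 13 of 1728 lincRNA probes (0.752%) from 11 loci, where 0.379% of all probes tested were called. For 11 of them the difference was above 0 (0.358% of all probes tested) and for 2 below it (0.0211%). All 13 lay in the dimmest of the 4 bins, where 1.32% of lincRNA probes and 1.48% of the other probes were called. In limma, 123 lincRNA probes passed at an unadjusted p below 0.05, against 1043 of the 21998 other probes. The count was 8 without siCONT replicate 2, 6 without siCONT + TSA replicate 1 and 7 without siCONT + TSA replicate 2, and limma with a trended and robust prior called 0. The 3 probes of XLOC_l2_009442 differed by 2.91, 3.46 and 3.72 on the log2 scale (adjusted p = 0.0025, 0.00437 and 0.00564). XLOC_009146, at chr11:61274039-61274098, read 2.93 and 3.18 in siCONT, 6.75 and 4.84 in siUHRF1, 2.84 and 3.20 in siCONT + TSA, 44.8 and 52.5 in siUHRF1 + TSA and 471 on the 5-aza-dC array, a difference of 3.06 (SE 0.19, adjusted p = 0.00255). In the opposite direction XLOC_001904 differed by -3.03 (adjusted p = 0.00248), since it was above background with TSA in siCONT cells only.

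The 5-aza-dC array gave the largest number of calls. Against siCONT, 1100 of 2396 lincRNA probes (45.9%) were called, 605 higher and 495 lower, where 48.9% of all probes tested were called (24.1% higher and 24.8% lower). The direction rested on the probe filter and on the scaling. Of the calls 55% were higher as reported, 17.5% with no filter on dim probes and 30.4% with only probes above background on every array. In place of the 75th percentile, normexp background correction gave 17.6% and spike-in scaling, which moved the median of all probes by -1.88, gave 10.6%. The rises below are therefore relative to the array's 75th percentile, and the lone array was taken to have the spread of the siRNA groups. Of the 605, 431 were below background in siCONT, against 2266 of the 5949 other probes called higher. Of the named loci XLOC_l2_015849 rose the most, and XLOC_l2_010338, XLOC_l2_015752 and XLOC_l2_011908 rose at least 202-fold, 218-fold and 45.2-fold (adjusted p = 1.36e-05, 8.17e-05 and 5.27e-06). These 4 loci were also called higher in siUHRF1 + TSA against siCONT, which shares the siCONT arrays. XLOC_004929 (134 and 129 in siCONT, 96.5 to 235 on the other siRNA arrays, 23.8 on the 5-aza-dC array) was at least 13.7-fold lower (adjusted p = 0.00116). XLOC_013788 (40.5 and 39.1 in siCONT, 5.96 with 5-aza-dC), XLOC_013370 and XLOC_005495 were lower too, by at least 4.13-fold, 6.29-fold and 6.60-fold (adjusted p = 0.00015, 2.15e-05 and 0.0141), and the call of XLOC_005495 was lost without siCONT replicate 1 (adjusted p = 0.0549).

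The dimness of the lincRNA probes was taken into account with the 4 equal bins of mean signal, taken from dimmest to brightest. The bins held 985, 466, 183 and 94 lincRNA probes. In siUHRF1 + TSA against siCONT 18.0%, 19.7%, 13.7% and 16.0% of them were called, against 24.7%, 22.4%, 24.8% and 22.8% of the other probes in the same bins. In siCONT + TSA against siCONT the shares were 7.41%, 8.15%, 11.5% and 8.51%, against 8.19%, 10.4%, 11.6% and 11.7%. In siUHRF1 + TSA against siCONT + TSA they were 5.18%, 1.72%, 0.546% and 0%, against 9.08%, 2.69%, 2.07% and 1.10%. In each of these 3 comparisons the share was lower for lincRNA probes in every bin. In the last of them the 2 brighter bins had only 1 and 0 lincRNA probes called. In siUHRF1 + TSA against siUHRF1 the shares were 13.6%, 12.2%, 9.29% and 16.0%, against 16.7%, 15.1%, 16.1% and 14.9%, so that the order turned in the brightest bin. These are descriptions with no test. With 5-aza-dC, whose bins held 1280, 740, 269 and 107 lincRNA probes, 45.9%, 43.0%, 51.7% and 51.4% were called, against 53.7%, 45.6%, 49.8% and 48.1%, so that the order turned in the 2 brighter bins.

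Several loci were measured by more than 1 probe. Of 202 loci with at least 2 probes tested, 76 had a call in siUHRF1 + TSA against siCONT. Of these, 43 had only 1 probe called and 33 at least 2, of which 31 had all calls in 1 direction. In 24 of the 76 every tested probe was called the same way. The exceptions were XLOC_l2_000727, with log2 fold changes of -1.91 and 1.22, and XLOC_l2_013485, with 0.41 and -0.65. With TSA alone all 8 loci with at least 2 calls had them in 1 direction, and so had 4 of 4 in siUHRF1 + TSA against siCONT + TSA and 17 of 18 in siUHRF1 + TSA against siUHRF1. With 5-aza-dC 106 of 126 loci did, and in 79 of the 216 with a call every tested probe was called the same way. Probes of a locus share its sequence and are not independent.

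XLOC_l2_003293 on chromosome 12 had the most probes called. Of its 7 probes 5 were tested, and all 5 were lower in siUHRF1 + TSA against siCONT, by log2 fold changes of -1.25, -0.92, -1.03, -1.31 and -0.94, and with TSA alone, by -1.29, -1.09, -1.07, -1.30 and -1.02. The brightest of them, at chr12:9728248-9728306, read 856 and 838 in siCONT, 986 and 879 in siUHRF1, 288 and 323 in siCONT + TSA, and 335 and 365 in siUHRF1 + TSA, so that every TSA array lay below every mock array. Although they carry 1 locus name, 4 probes were placed between chr12:9552409-9552468 and that position, and 1 at chr12:31267333-31267392. The probe at chr12:31267333-31267392 is listed under the transcript ENST00000542925. It shares most of its bases, in a single identical run, with the probe at chr12:9552409-9552468, so that these probes are not separate readings. The probe at chr12:9552409-9552468 shares 32 bases with a probe outside the lincRNAs for ENST00000542925, whose log2 fold changes were -1.11 in siUHRF1 + TSA and -1.27 with TSA alone.

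All 4 probes of XLOC_001257 on chromosome 1 were higher in siUHRF1 + TSA against siCONT, by 1.30, 1.12, 1.31 and 0.98 on the log2 scale, although probes of this locus overlap in position. Its probe of highest signal read 746 and 805 in siCONT, 864 and 1030 in siUHRF1, 992 and 1060 in siCONT + TSA, 1320 and 1690 in siUHRF1 + TSA, and 4060 on the 5-aza-dC array. With 5-aza-dC against siCONT 2 of its probes were called higher (0.92 and 0.86) and 1 lower (-1.16, adjusted p = 0.0378). XLOC_l2_015760 on chromosome X had 3 of 3 probes higher, by 0.41, 0.39 and 0.79. XLOC_005126 on chromosome 6 had 3 of 7 lower, by -0.50, -0.78 and -0.76, and XLOC_001952 on chromosome 2 had 2 of 5 lower, by -0.54 and -1.30.

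**Figure D4:**
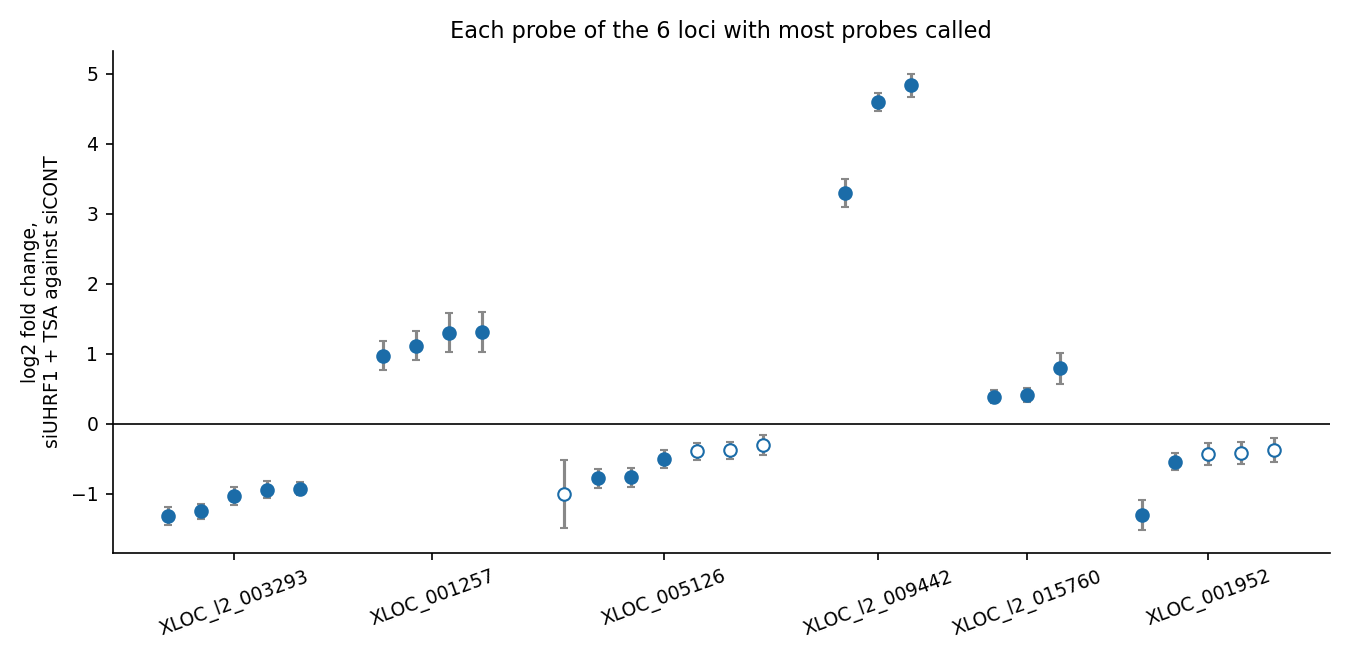
Log2 fold change in siUHRF1 + TSA against siCONT of each tested probe of the 6 loci with the most probes called; bars are the standard errors from limma, filled points were called and open points were not. All 5 tested probes of XLOC_l2_003293 lie between -1.31 and -0.92, and all 4 of XLOC_001257 between 0.98 and 1.31.

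By position, most lincRNA probes lay far from any probe for a gene with a symbol. The median distance was 73.3 kb, and 1571 of 11746 (13.4%) had such a probe within 10 kb, 766 of these (48.8%) on the same strand. With UHRF1 siRNA and TSA together against siCONT, 31 of 359 tested lincRNA probes with a gene probe within 10 kb were higher (8.64%) and 26 lower (7.24%), and of the 1344 farther away 163 were higher (12.1%) and 85 lower (6.32%), where 15% of all probes tested were called higher and 8.24% lower. Of the tested genes within 10 kb of a lincRNA probe called higher, 4 of 20 were called higher and 1 lower. Of those within 10 kb of a probe called lower, 0 of 16 were called higher and 6 lower. With 5-aza-dC the counts were 26 higher and 9 lower of 57, and 16 higher and 33 lower of 96, where 24.1% of all probes tested were called higher and 24.8% lower.

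The genes nearest to the most changed loci did not all move with them. For XLOC_l2_015849 the nearest tested genes were ZNF275 at 44.2 kb and TREX2 at 49.3 kb, with log2 fold changes of -0.37 and 0.06 in siUHRF1 + TSA against siCONT (adjusted p = 0.117 and 0.762). GAD1, 58.4 kb from XLOC_001748, had -0.38 (adjusted p = 0.0887). BBC3, which encodes the proapoptotic protein PUMA and lies 18.3 kb from XLOC_013370 on the same strand, fell with it in that comparison (-0.82, adjusted p = 0.00505) and with TSA alone (-0.54, adjusted p = 0.0337). TRIML2, 69.3 kb from XLOC_003832, rose as that locus did (3.09, adjusted p = 0.019, against 3.95, adjusted p = 6.43e-05). ACRC, 49.5 kb from XLOC_l2_015752, was lower with TSA alone (-2.07, adjusted p = 0.00442) and higher with 5-aza-dC (6.54, adjusted p = 7.4e-06).

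The 6 lincRNA probes of highest signal in siCONT were all of the XLOC_l2_ form. XLOC_l2_004940 read 173000 and 164000 in siCONT, XLOC_l2_005557 read 154000 and 158000, XLOC_l2_002910 read 129000 and 134000, and XLOC_l2_011566 read 119000 and 113000. XLOC_l2_015478 followed at 92800 and 93300, and XLOC_l2_015885, placed on chromosome Y, was the sixth at 83300 and 87300. None of the 6 was called in a siRNA comparison, and 5 of them were called lower on the 5-aza-dC array, with log2 fold changes of -0.83 to -1.13. The probe of XLOC_l2_004940 aligned to one for EEF1A1 over 54 bases at 87.0% identity, gaps allowed, and that of XLOC_l2_002910 to another over 38 bases at 94.7%. The probe of XLOC_l2_011566 aligned over 57 bases at 87.7% to one for RPLP1, a ribosomal stalk protein. For XLOC_l2_005557, XLOC_l2_015478 and XLOC_l2_015885 no resembling probe of another locus was found, but transcripts without a probe on the array were not searched.

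Such resemblance to a probe of another transcript outside the lincRNAs, over at least 30 bases at 80% identity or more on the same strand, was found for 169 of 11836 lincRNA probes (1.43%). Among those above background on no array it was 72 of 8822 (0.816%), and among those above background on all 9 arrays 69 of 1142 (6.04%). Of the 100 brightest of these 15 had it (15%), of the 20 brightest 6 (30%), and of the 1042 outside the brightest 100 there were 54 (5.18%). Of the 196 called higher in siUHRF1 + TSA against siCONT 5 had such a resemblance, and of the 113 called lower 6 did. For these probes the lincRNA and the resembling transcript cannot be told apart by signal alone. The search covered the probes of the array and not the whole transcriptome.

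**Figure D5:**
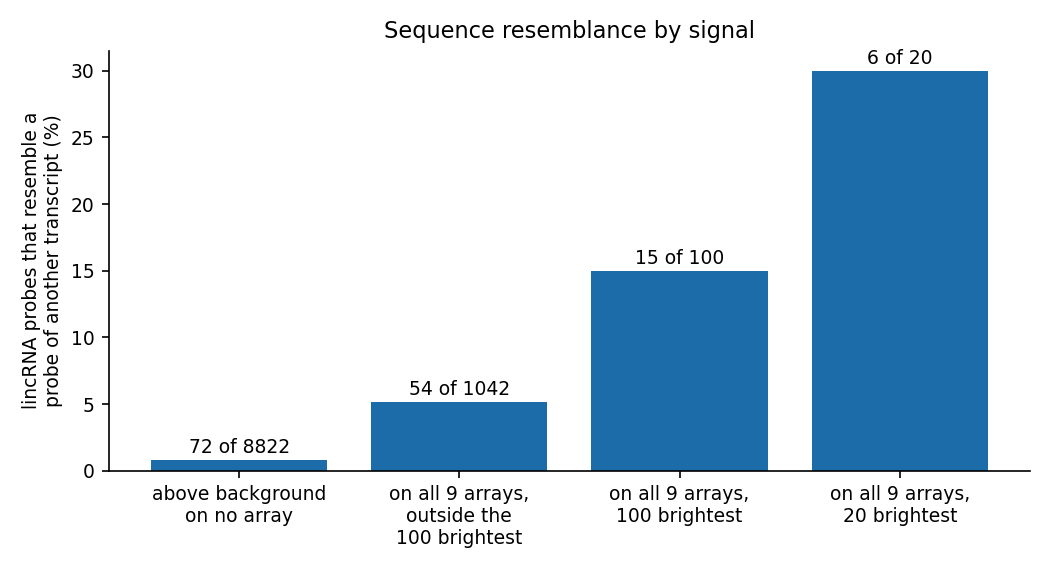
Share of lincRNA probes, in percent, that resemble a probe of another transcript outside the lincRNAs, by how bright they were, with counts above the bars. The share runs from 0.816% (72 of 8822) among probes above background on no array to 30% (6 of 20) among the 20 brightest.

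In base composition the lincRNA probes had a median GC content of 41.7%, against 43.3% for the other probes, and 43.1% held at least 1 CG dinucleotide, against 53.0%. Those above background on all 8 siRNA arrays had a median GC content of 45.0%. A CG was present in 57.1% of the 196 lincRNA probes called higher in siUHRF1 + TSA against siCONT, 43.4% of the 113 called lower and 47.1% of the 1419 tested and not called. These letters are within the 60 bases of the probe and say nothing of the locus around it.

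Long noncoding RNAs under gene symbols, outside the XLOC_ loci, gave a comparison. Of 32 names listed, 24 were on the array and 21 were tested. In siUHRF1 + TSA against siCONT 3 were higher and 3 lower, where 15% of all probes tested were called higher and 8.24% lower. H19, an imprinted RNA, was higher (log2 fold change 2.72, limma adjusted p = 0.000179). It was also the only one called with UHRF1 siRNA alone (1.70, adjusted p = 0.00756), where 0.556% of all probes tested were called. HOTAIR (0.41, adjusted p = 0.0455) and TUG1 (0.45, adjusted p = 0.0256) were higher, and NEAT1, the scaffold of paraspeckles (-0.99, adjusted p = 0.00159), CRNDE (-0.69, adjusted p = 0.006) and the snoRNA host SNHG1 (-0.68, adjusted p = 0.0267) were lower. Of 133 symbols beginning with LINC, 45 were tested, and 6 were higher and 3 lower in that comparison. With 5-aza-dC 13 of 54 were higher and 16 lower, where 24.1% of all probes tested were called higher and 24.8% lower.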

How the data were processed

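Total RNA of RKO cells was labelled with Cy3 and hybridised to 9 Agilent SurePrint G3 Human GE v2 microarrays, each with a single dye. The authors extracted the deposited signals with Feature Extraction 10.7. They are linear intensities, background-subtracted and not scaled from array to array. The series' deposited value table repeats them rounded. The number of arrays limits the precision. Outlier spots were left out, spots of a probe were averaged, and the 75th percentile of each array was subtracted from its log2 values. Probes well above background on all arrays of at least 1 group were fitted with limma 3.58.1 (lmFit and eBayes, R 4.3.3, with version 1.17.8 of data.table), with the 8 siRNA arrays in 4 groups, or all 9 for 5-aza-dC. Calls had a Benjamini-Hochberg adjusted p below 0.05 over all probes tested. The procedure was tested on simulated data. Probes were aligned to each other with blastn 2.17.0, and counts were made in Python 3.11.15 with pandas 2.3.3.

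A locus was represented by its probe of highest mean signal on the siRNA arrays. Named were the 8 largest rises and falls in siUHRF1 + TSA against siCONT, 4 of each in the other comparisons, among loci called with groups that did not overlap; the 6 brightest in siCONT; and the 6 with most probes called. Loci on chromosome 8 were counted but not named. The members and lists were chosen with earlier results of these data known. The alternatives were normexp background correction (offset 50), 3 other scalings, no filter or a strict filter, the deposited values, a replicate block, a trended robust prior, the methods' t-test and leaving out each array, and the overlap with 5-aza-dC under other scalings was added after the data were seen.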

Additional observations from a re-analysis of the deposited data

Results flagged for a closer look

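The effect of UHRF1 siRNA differed between TSA-treated and mock-treated cells, by limma's test of that difference, for 8 probes of 6 named loci. XLOC_l2_009442 differed by 3.46 (adjusted p = 0.00437), 2.91 (0.0025) and 3.72 (0.00564) on the log2 scale with its 3 probes. XLOC_000027 differed by 3.96 (adjusted p = 0.014), XLOC_009146 by 3.06 (0.00255) and XLOC_003832 by 2.01 (0.0221), all with the larger effect under TSA. XLOC_001904 differed by -3.03 (adjusted p = 0.00248) and XLOC_009363 by -1.51 (0.0222), the other way. For each locus except XLOC_009363 and XLOC_001904, only the siUHRF1 + TSA arrays among the siRNA arrays were above background. For XLOC_001904 only the siCONT + TSA arrays were. XLOC_009363 was below background on both siUHRF1 + TSA arrays and on replicate 2 of siCONT and of siUHRF1. The size of the difference therefore rests on values below background for every locus, in part or in most groups. With an array left out, the call of XLOC_009363 was lost in 8 of 8 fits, that of XLOC_003832 in 6 and that of XLOC_000027 in 5, and the calls of XLOC_009146, XLOC_001904 and the representative probe of XLOC_l2_009442 in none. All 6 loci lost the call under normexp and, separately, under a robust prior with a trend. The calls of XLOC_009363 and XLOC_003832 were also lost with the replicate block and with spike-in scaling, and that of XLOC_003832 with quantile normalization.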

How the results depend on the processing

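Of 58 calls of named loci, 35 remained without each of the 8 siRNA arrays in turn and 23 were lost at least once, 25 were lost with normexp background correction, and none was reversed. Normexp left 1 call in siUHRF1 against siCONT, 42 in siCONT + TSA against siCONT, 83 in siUHRF1 + TSA against siCONT, 12 against siCONT + TSA, 50 against siUHRF1 and 1 for the difference between effects. Scaling on the spike-in probes gave 72 calls for TSA alone and 1859 for 5-aza-dC. No filter gave 16 for siUHRF1, 64 for TSA alone and 4898 for 5-aza-dC, and the strict filter 0 for siUHRF1, 205 for the combination, 10 against siCONT + TSA, 0 for the difference and 527 for 5-aza-dC. A trended and robust prior in limma called 0 for the difference, where 123 probes had an unadjusted p below 0.05 in limma's reported fit (193 for siUHRF1). The methods' t-test at an unadjusted threshold with a change over 2-fold gave 21, 79, 145 and 78 for siUHRF1, TSA alone, the combination and TSA in siUHRF1 cells, and after Benjamini-Hochberg 0 for siUHRF1, 134 for TSA alone, 9 for the combination, 0 against siCONT + TSA and 1 against siUHRF1. With an array left out the counts ranged from 5 to 14 for siUHRF1, 4 to 240 for TSA alone, 118 to 407 for the combination, 35 to 81 against siCONT + TSA, 113 to 388 against siUHRF1, 6 to 13 for the difference and 856 to 1211 for 5-aza-dC. The median log2 fold change of lincRNA probes went below 0 for TSA in siUHRF1 cells with quantile normalization (-0.0152) and spike-in scaling (-0.0643), for the combination with both (-0.05 and -0.09), for TSA alone with spike-in scaling (-0.01), for the difference with normexp (-0.22), quantile normalization (-0.06) and spike-in scaling (-0.06), and for 5-aza-dC with normexp (-0.49), quantile normalization (-0.0128), spike-in scaling (-1.71), no filter (-0.55) and the strict filter (-0.19). The less strict background flag put 39.5%, 37.5%, 39.2%, 43.2%, 40.5%, 36.0%, 40.3% and 41.0% of lincRNA probes above background on the siRNA arrays, in the order of the groups, and 41.7% on the 5-aza-dC array. The causes of these changes were not tested, except that stricter or looser filters change how many probes are tested. With the replicate block the counts were 12, 139, 308, 62, 205 and 9 for the 6 siRNA comparisons. The replicate numbers pair only the siUHRF1 arrays, which share an siRNA (correlation of deviations 0.466, others -0.047 to 0.080). The slide as a block and the block for 5-aza-dC could not be fitted. Most lincRNA probes were below background, where a change cannot be detected.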
